A study of Mus musculus with 2 samples.

Results

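The oligoadenylate synthetase (OAS) family of the mouse was followed in primary hepatocytes, liver cells kept in culture, that had been transfected with 1 of 2 small interfering RNAs. The members were chosen by gene symbol: Oas1a, Oas1b, Oas1c, Oas1g, Oas2, Oas3, Oasl1 and Oasl2. All 8 were found among the 14339 named genes of the deposited expression table. One library came from cells given ClpP siRNA, against the protease subunit of the mitochondrial matrix, and the other from cells given GFP siRNA, against green fluorescent protein, a jellyfish protein that serves as the control target. Both were transfected with the lipid reagent Lipofectamine, so both had received a short RNA duplex, and no library of untransfected cells was analysed here. The sources used here do not give the mouse strain, age or number, the siRNA dose or when cells were harvested. Each group held 1 library, so that no difference has a replicate check, a test or a p-value.

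OAS proteins are intracellular sensors of double-stranded RNA. When they bind it, they join ATP into short chains with unusual 2'-5' bonds (2-5A), a messenger of the antiviral response that limits the growth of viruses in the cell. In most cells, the liver included, the genes are transcribed at a low level until interferon acts on the cell through its receptors.

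Markers of hepatocytes were measured as a check of the label. Albumin (Alb) stood at 2952 FPKM (sequenced fragments per kilobase of transcript, scaled to library size) in the control and at 6245 FPKM after ClpP siRNA. The apolipoprotein genes Apoa1 (168 and 568 FPKM) and Apob (68.8 and 54.9 FPKM) and the transthyretin gene Ttr (101 and 216 FPKM) were also well above 1 FPKM in both. Other hepatocyte markers were lower: the urea cycle gene Cps1 had 3.15 and 27.8 FPKM, Tat 7.62 and 16.3 FPKM, and Asgr1, a subunit of the asialoglycoprotein receptor, 6.91 and 4.19 FPKM. The targeted gene, Clpp, had 45.1 FPKM in the control and 9.32 after ClpP siRNA. The depth of the libraries is unknown, because FPKM carries no read count, and the table held no gene at 0 in either library.

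All 8 members were higher in the ClpP siRNA library. Their summed level was 64.3 FPKM in the control (GFP siRNA) and 1000.1 FPKM after ClpP siRNA, a ratio of 15.5. As a share of the FPKM of all named genes, the family went from 0.0121% to 0.187%. The size of each difference is given below as a log2 ratio, log2(FPKM + 1) with ClpP siRNA minus log2(FPKM + 1) with GFP siRNA; the added 1 shrinks the ratio of genes of low FPKM. All 8 were at least 2-fold higher on this scale (log2 ratio of at least 1), whereas 5.19% of the 11087 genes with a mean FPKM of at least 1 were. At 8-fold (log2 ratio of at least 3) the family had 6 members, and 0.586% of all genes lay that high. Oas2 and Oas3 lay below 1 FPKM with GFP siRNA and met the limit on the mean only through the ClpP siRNA library. With no filter on the mean, 4.11% of 14339 genes were at least 2-fold higher. The median log2 ratio was 3.72 for the family and -0.01 for all genes, whose 16th and 84th percentiles were -0.36 and 0.40. In RNA from a whole culture, more cells expressing a gene and more RNA per cell cannot be told apart.

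**Figure D1:**
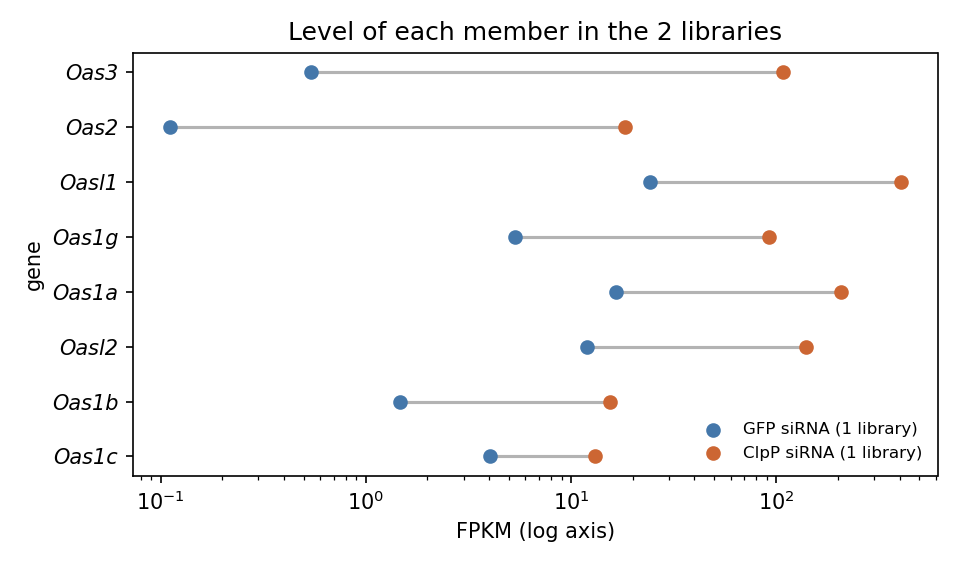
FPKM of each of the 8 genes (vertical axis) in the GFP siRNA library (blue) and the ClpP siRNA library (orange), 1 library each, on a log axis, with the genes in order of their log2 ratio. Each orange point lies to the right of its blue point, and the widest gaps are those of Oas3 (0.540 to 108 FPKM) and Oas2 (0.111 to 18.3 FPKM).

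The enzymes with a single synthetase unit belong to the Oas1 group. Oas1a (NCBI gene 246730), 1 of the active synthetases of the mouse, had 16.5 FPKM in the GFP siRNA library and 206 FPKM in the ClpP siRNA library, giving a log2 ratio of 3.56. Oas1g (NCBI gene 23960), also an active enzyme, had 5.34 and 92.5 FPKM, a log2 ratio of 3.88. As deposited, Oas1a stood above Oas1g in either library, at 3.10 times its level with GFP siRNA and 2.23 times with ClpP siRNA, but the split of reads between these close copies is uncertain.

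The other measured Oas1 genes are known for products without synthetase activity. Oas1b (NCBI gene 23961) is the gene of the flavivirus resistance locus; resistant mice carry a full-length allele, and many laboratory strains a truncated one. RefSeq lists it for the reference strain as a transcribed pseudogene, and the deposited table names it an inactive synthase. Its level was 1.46 FPKM in the control and 15.6 after ClpP siRNA, which is a log2 ratio of 2.75. The sources used here do not say which allele these cells carried. Oas1c (NCBI gene 114643) had 4.04 and 13.1 FPKM and, at 1.48, the lowest log2 ratio of the 8. With GFP siRNA Oas1a stood at 4.09 times the level of Oas1c, and with ClpP siRNA at 15.8 times. Of the 12 Oas and Oasl genes that RefSeq places on chromosome 5 of the mouse, Oas1d, Oas1e, Oas1f and Oas1h had no row in the table and were not analysed here.

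Among the measured Oas1 genes, Oas1a and Oas1g are close copies, so reads can be assigned to the wrong one. The transcripts of Oas1a and Oas1g were 91.8% identical over their length. Of all stretches of 50 bases in the Oas1a transcript, 57.6% occurred unchanged in another gene, in every case Oas1g, and at 100 bases the share was 40.9%. For Oas1g the shares were 54.7% and 38.2%. The value of either gene alone is therefore uncertain, but their sum depends little on how reads were divided between them: it went from 21.9 FPKM in the control to 299 after ClpP siRNA, a ratio of 13.7. The transcript of Oas1a was 67.2% identical to that of Oas1b and 60.1% to that of Oas1c. Oas1b shared 3.19% of its stretches of 50 bases, with Oas1a, Oas1g and genes outside the family. Oas1c shared 10.7% of its stretches of 50 bases with other genes, all of them among Oas1d, Oas1e, Oas1f and Oas1h. Oas2, Oasl1 and Oasl2 shared 0 such stretches with any other gene, and Oas3 0.471%, none of it with the family. In the transcripts used, those of GENCODE M21, these 4 genes thus had no such stretch in common with the rest of the family. The 4 Oas1 genes together had 27.4 and 328 FPKM, a log2 ratio of 3.53.

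Oas2 and Oas3 encode larger proteins in which the synthetase unit is repeated. In human cells OAS3 is known as a main source of 2-5A. Oas3 (NCBI gene 246727) was barely present with GFP siRNA, at 0.540 FPKM, and reached 108 FPKM with ClpP siRNA. Its log2 ratio of 6.15 was the highest of the family and ranked 5 among the 11087 genes. Oas3 was among these genes only through its ClpP siRNA value, which brought its mean FPKM above 1. Oas2 (NCBI gene 246728) had 0.111 FPKM in the control and 18.3 after ClpP siRNA, for a log2 ratio of 4.12. Without the added 1, the FPKM ratios were 200.4 for Oas3 and 166 for Oas2, and between 3.24 and 17.3 for the other 6. Both of these large ratios rest on a low GFP siRNA value whose counting error is unknown. The level of Oas3 was 4.88 times that of Oas2 with GFP siRNA and 5.90 times with ClpP siRNA. With GFP siRNA both values lay below 1 FPKM, so whether their proportion was kept cannot be said.

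The OASL proteins carry ubiquitin-like domains behind the synthetase-like part. Mouse OASL1 makes no 2-5A and is known to hold back translation of the mRNA of Irf7, the transcription factor that amplifies interferon production, while OASL2 has synthetase activity. Oasl1 (NCBI gene 231655) was the most abundant member in both libraries, at 24.3 FPKM in the control and 406 after ClpP siRNA, for a log2 ratio of 4.01. With that it moved from rank 3171 to rank 204 among the 14339 genes by level. Oasl2 (NCBI gene 23962) had 12.0 and 140.0 FPKM, a log2 ratio of 3.43. The level of Oasl1 was 2.01 times that of Oasl2 with GFP siRNA and 2.90 times with ClpP siRNA.

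Because FPKM is scaled to transcript length, the members can also be ranked by level within a library. With GFP siRNA the order was Oasl1, Oas1a, Oasl2, Oas1g, Oas1c, Oas1b, Oas3 and Oas2. With ClpP siRNA it was Oasl1, Oas1a, Oasl2, Oas3, Oas1g, Oas2, Oas1b and Oas1c. The first 3 places were the same, Oas3 moved from the seventh to the fourth, and Oas1c from the fifth to the eighth. Whether neighbours in either order differ beyond the spread between replicates cannot be said with 1 library per group. Oasl1 held 37.7% of the summed FPKM of the family with GFP siRNA and 40.6% with ClpP siRNA. Oas3 held 0.839% and 10.8%, while Oas1c held 6.28% and 1.31%. Oas1a had 25.7% and 20.6%, and Oasl2 18.7% and 14.0%. Oas1a and Oas1g, between which reads may be divided wrongly, together had 34.0% and 29.9%. Oas2 held 0.172% and 1.83%. In percentage points the share of Oas3 differed most between the libraries.

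**Figure D2:**
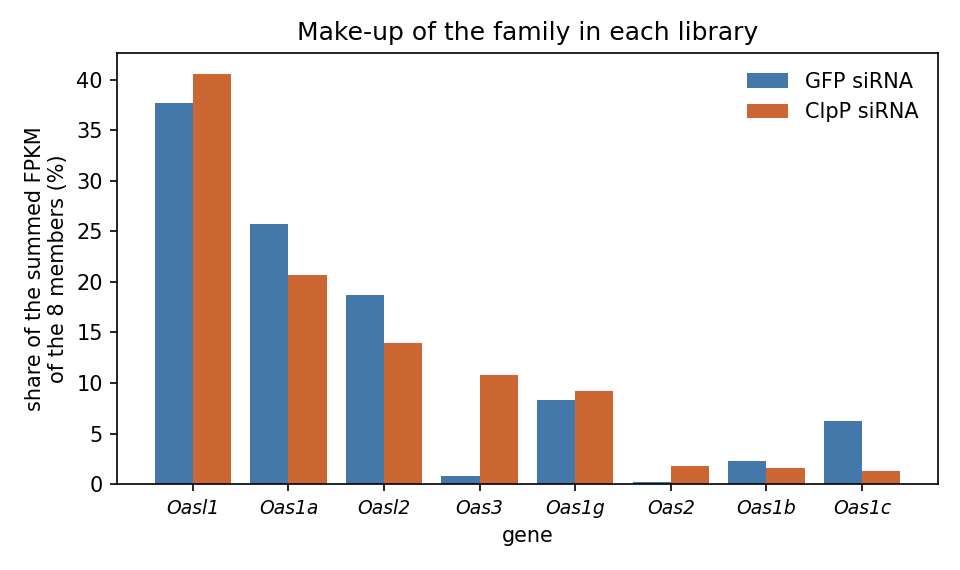
Share of each gene in the summed FPKM of the 8 members (percent, axis from 0), in the GFP siRNA library (blue bars) and the ClpP siRNA library (orange bars), 1 library each. Oasl1 is the tallest bar in both, at 37.7% and 40.6%, and Oas3 goes from 0.839% to 10.8%.

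The order of the members by log2 ratio depends on the pseudocount. Oas3 was the highest and Oas1c the lowest at each of the pseudocounts 0, 0.1, 1 and 5, but Oas2 went from the second place to the sixth. With a pseudocount of 5 its log2 ratio was 2.19, beside 3.81 for Oasl1, and that of Oas1c was just above 2-fold. Oas1a, Oasl1 and Oasl2, which had 12.0 FPKM or more with GFP siRNA, varied least, between 3.30 and 3.64, 3.81 and 4.06, and 3.09 and 3.54. In the authors' deposited table, whose values were quantile normalized, the fold change was 68.0 for Oas3, 17.2 for Oas2, 15.0 for Oasl1 and 2.70 for Oas1c.

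**Figure D3:**
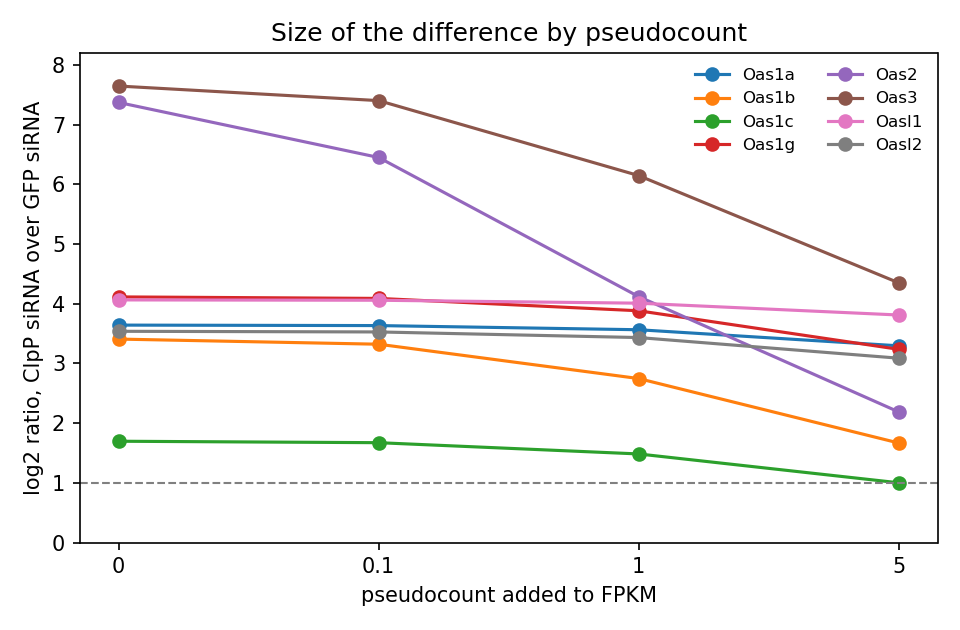
Log2 ratio of ClpP siRNA over GFP siRNA for each member (1 line per gene, 1 library per group) with 0, 0.1, 1 or 5 added to both FPKM values; the dashed line marks 2-fold. Oas2 drops from 7.37 to 2.19 and Oas3 from 7.65 to 4.35, while Oasl1 stays between 3.81 and 4.06.

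Promoters of 6 members were in the RefSeq promoter table (build GRCm38.p6), as windows of 250 bases before to 50 after the annotated start. Oas1b and Oas2 had no entry. The windows were searched on both strands for 2 copies of GAAA with any 2 bases between them, the core of the interferon-stimulated response element, to which IRF proteins bind. It was found in 4 of the 6 windows (Oas1a, Oas1c, Oas1g and Oas3) and in 3.44% of all 32851 windows of the table. Among windows of genes at least 2-fold higher with ClpP siRNA the share was 15.4% of 538. Among those of the other genes with a mean FPKM of at least 1 it was 2.41% of 10849. The 538 windows include those of the 6 members, and the higher genes were called from these same libraries. The shorter IRF core AANNGAAA, which is contained in each match of the longer motif and was added after the sequences had been seen, was in 5 of the 6 windows, Oasl1 included, and in 23.9% of all windows. Its share was 35.1% among windows of the higher genes and 16.9% among those of the other genes. TTCNNNGAA, the core of the STAT dimer element, was in 1 of the 6, that of Oas1a, and in 8.30% of all windows. For this element the shares in these groups lay closer together, at 8.74% and 6.71%. Oasl2 held none of these letters in its window, which says nothing about what binds there.

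The 250 bases before the start are shown for the 4 genes with the longer motif, since these hold the lowest and the highest log2 ratio of the family. All 4 lie on the minus strand, at chr5:120907526-120907775 (Oas1a), chr5:120887614-120887863 (Oas1g), chr5:120812515-120812764 (Oas1c) and chr5:120777660-120777909 (Oas3), and read 5' to 3' along the gene, with the bases of matches to this longer motif in capitals.
Oas1a promoter: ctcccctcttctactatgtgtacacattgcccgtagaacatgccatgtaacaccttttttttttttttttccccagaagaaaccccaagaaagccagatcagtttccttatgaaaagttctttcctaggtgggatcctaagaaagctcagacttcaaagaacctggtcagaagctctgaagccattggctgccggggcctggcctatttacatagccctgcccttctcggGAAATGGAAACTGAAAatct
Oas1g promoter: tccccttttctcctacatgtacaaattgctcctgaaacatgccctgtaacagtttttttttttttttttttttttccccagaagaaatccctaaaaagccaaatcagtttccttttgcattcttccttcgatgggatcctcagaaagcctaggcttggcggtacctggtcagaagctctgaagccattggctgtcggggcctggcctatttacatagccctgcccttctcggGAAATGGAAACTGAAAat
Oas1c promoter: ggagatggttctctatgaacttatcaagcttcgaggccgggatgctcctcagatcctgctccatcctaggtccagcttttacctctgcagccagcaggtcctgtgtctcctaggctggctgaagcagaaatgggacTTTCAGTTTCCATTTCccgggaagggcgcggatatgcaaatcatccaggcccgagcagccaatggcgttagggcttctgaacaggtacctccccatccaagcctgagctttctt
Oas3 promoter: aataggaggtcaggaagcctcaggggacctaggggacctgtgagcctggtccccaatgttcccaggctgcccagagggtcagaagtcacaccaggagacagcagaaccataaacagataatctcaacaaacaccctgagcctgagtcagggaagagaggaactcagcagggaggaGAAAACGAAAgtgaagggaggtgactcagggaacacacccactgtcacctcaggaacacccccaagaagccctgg
Oas1a and Oas1g carry the same run of 16 bases, in which 2 matches overlap, close to the start: 4 bases lie between its end and the start of Oas1a, and 2 in Oas1g. Their whole windows were 87.0% identical, against 44.7% to 53.0% for every other pair among the 6. Oas1c also holds 2 overlapping matches, on the opposite strand and 98 bases before the start. In Oas3 there is 1 match, 65 bases before it. Whether the number or place of the matches bears on the size of the log2 ratio was not tested.

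The genomic neighbours of the family were compared next. In RefSeq the Oas1, Oas2 and Oas3 genes form 1 cluster on chromosome 5, and Oasl1 and Oasl2 lie side by side elsewhere on it. For each, the 5 nearest protein-coding genes of the table on either side were taken. Of these genes 19 are reported here. Among the 15 of them with a mean FPKM of at least 1, 1 was at least 2-fold different, beside 7.22% of all genes in either direction. The other 4 (Iqcd, Rasal1, Dtx1 and Rph3a) were too low to pass 2-fold with a pseudocount of 1. The gene next to Oas2, Dtx1, was close to absent with 0.0288 and 0.0151 FPKM, and so was Rph3a on the other side with 0.0274 and 0.0143. Ptpn11, which encodes the phosphatase SHP2, had 51.2 and 47.8 FPKM (log2 ratio -0.10). The gene past 2-fold was Trafd1, an interferon-inducible regulator of innate signalling and the fifth gene on that side, with 27.0 and 95.7 FPKM (1.79). Around the Oasl pair, Acads, a mitochondrial enzyme of fatty acid oxidation, had 75.6 and 64.3 FPKM (-0.23), and the 9 reported genes lay between -0.28 and 0.23.

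**Figure D4:**
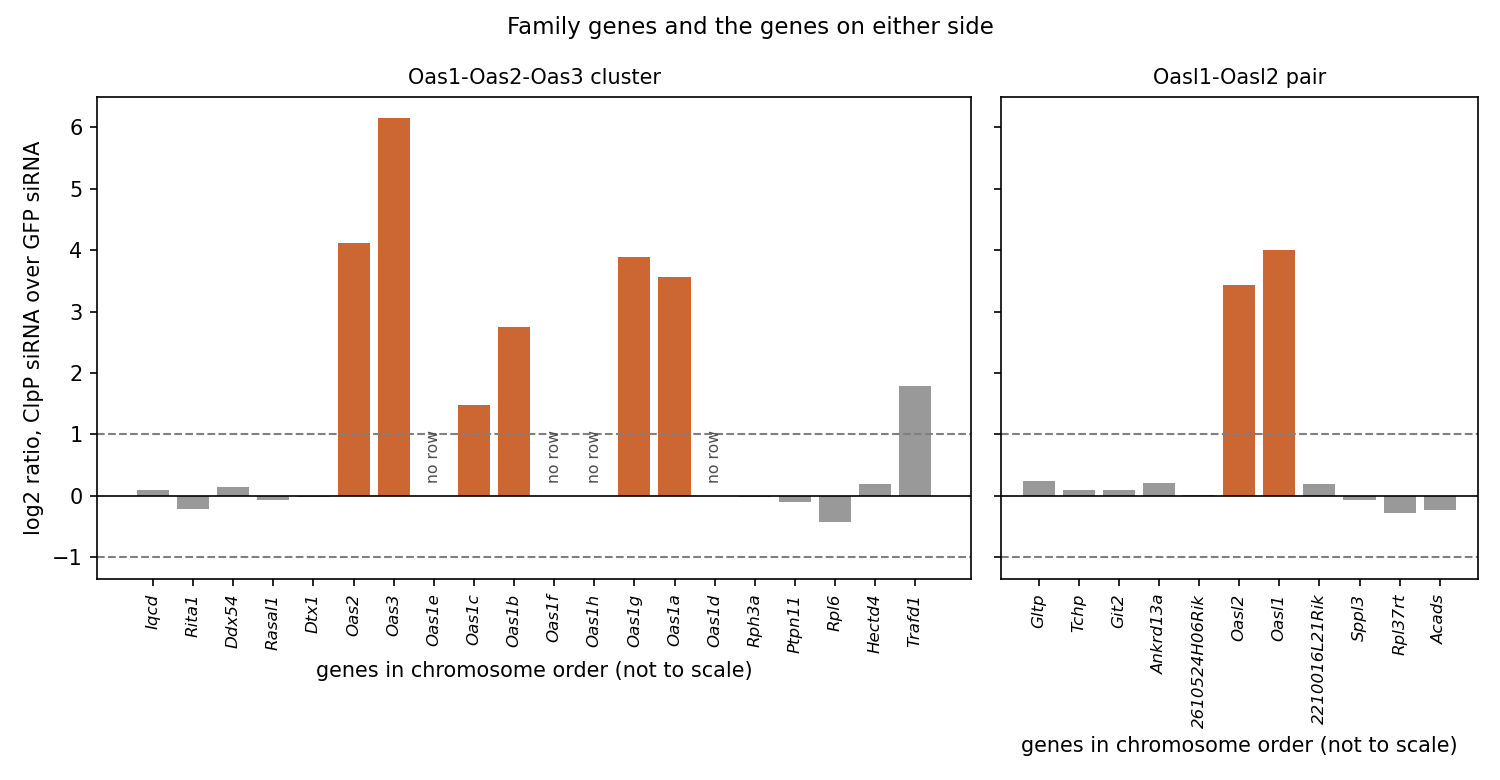
Log2 ratio of ClpP siRNA over GFP siRNA (1 library per group) for the family genes (orange) and the reported genes among the 5 nearest protein-coding ones on either side (grey), in chromosome order and not to scale; dashed lines mark 2-fold, and genes marked "no row" were not in the table. The family genes stand between 1.48 and 6.15, and among the flanking genes Trafd1 (1.79) alone passes 2-fold. That is 1 of the 15 flanking genes with a mean FPKM of at least 1, beside 7.22% of all genes in either direction. The other 4 were too low to pass it.

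Genes that limit 2-5A signalling were looked up next. Abce1, which restrains the response to 2-5A and also serves in ribosome recycling, had 38.1 and 30.3 FPKM (log2 ratio -0.32). Pde12 and Akap7, whose products degrade 2-5A, had log2 ratios of -0.20 and -0.40. These 3 genes were slightly lower with ClpP siRNA, and 0 of them passed 2-fold in either direction. Of all genes 7.22% did, so 3 genes are too few to be set apart from that share.

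Other sensors of double-stranded RNA and their adaptors were set beside the family. Of 10 genes, 7 were at least 2-fold higher (5.19% of all genes were) and 0 at least 2-fold lower (2.04% of all genes), with a median log2 ratio of 1.46. The highest was Zbp1, a sensor of nucleic acids in the left-handed form, at 4.06 (21.6 and 375 FPKM). Dhx58, which encodes LGP2, had 3.06, and the endosomal receptor Tlr3 2.58. The cytosolic sensors Ifih1 (MDA5) and Ddx58 (RIG-I) had 1.87 and 1.57, the RNA editing enzyme Adar 1.35 and Eif2ak2 (PKR), the kinase that halts translation, 1.17. The adaptors Mavs (0.05) and Ticam1 (-0.09) and the PKR activator Prkra (-0.19) were near 0. Mb21d1 (cGAS), a DNA sensor with an OAS-like fold, had 0.0782 and 0.574 FPKM, and its partner Tmem173 (STING) 0.430 and 0.345 FPKM.

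Genes of type I interferon signalling, which drives OAS transcription, were higher in part. Of 9 reported, 3 were at least 2-fold higher, beside 5.19% of all genes, and 0 at least 2-fold lower, beside 2.04%. Their median log2 ratio was 0.71, and 1 of the 3, Irf1, sat on the limit. Irf7, whose translation OASL1 restrains, had 103 and 921 FPKM, a log2 ratio of 3.14. Stat2 had 1.35 (21.7 and 56.9 FPKM), while its DNA-binding partner Irf9 had 0.89 (24.7 and 46.5 FPKM). Irf1 (24.5 and 49.96 FPKM) lay just above the 2-fold limit and was under it in the authors' normalized values. The receptor subunits Ifnar1 and Ifnar2 had -0.41 and 0.71, the kinases Jak1 and Tyk2 0.24 and 0.36, and Irf3, which is activated without new synthesis, -0.39. None of the 10 interferon genes looked up (Ifnb1, Ifna1, Ifna2, Ifna4, Ifna5, Ifnl2, Ifnl3, Ifne, Ifnk and Ifng) had a row, and they were not analysed here.

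**Figure D5:**
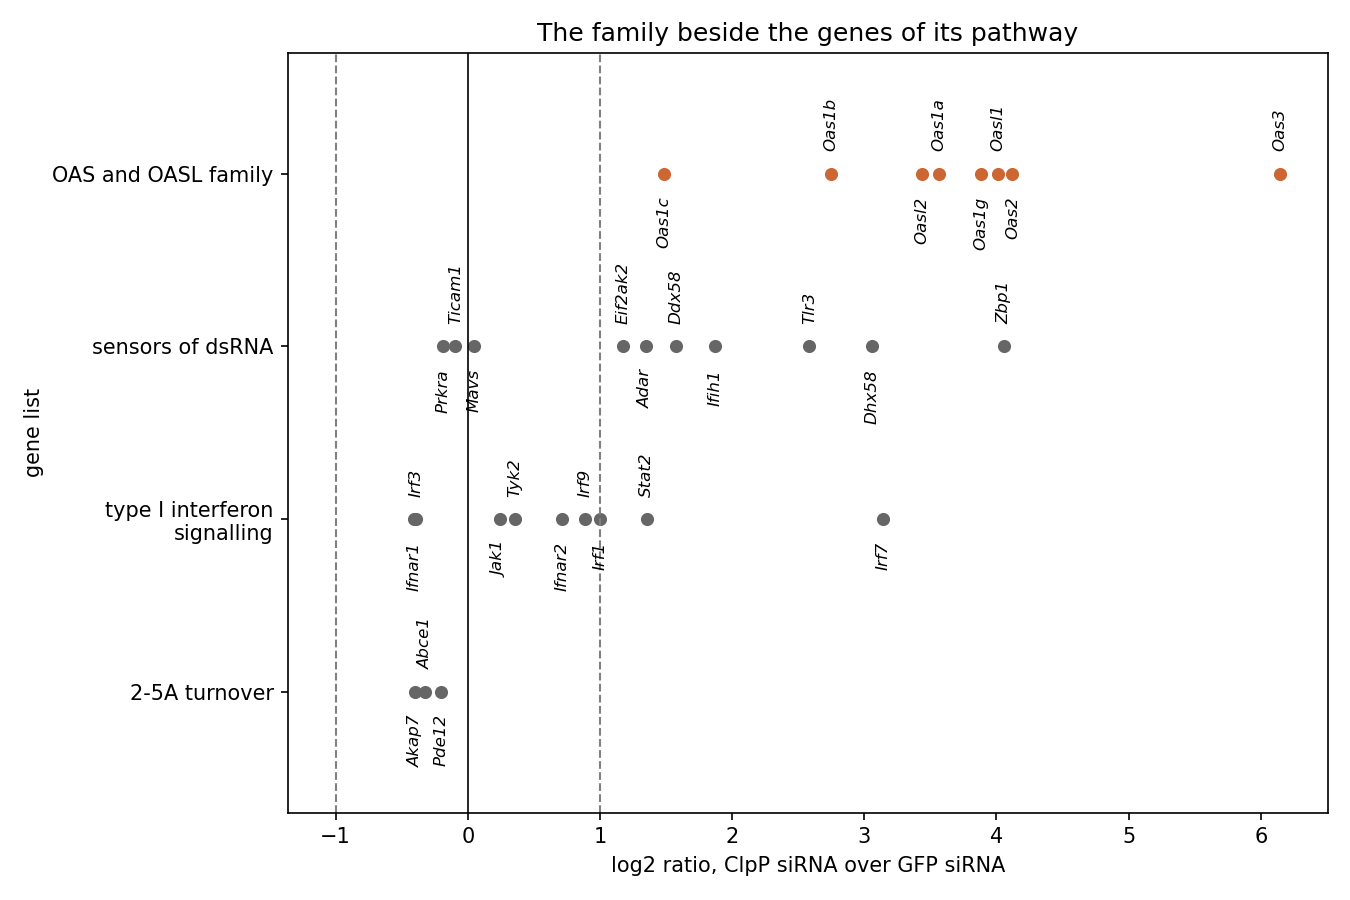
Log2 ratio of ClpP siRNA over GFP siRNA (horizontal axis; 1 library per group) for the 8 family members (orange) and for genes of 3 related lists with a mean FPKM of at least 1 (grey), 1 point per gene; dashed lines mark 2-fold. The family spans 1.48 to 6.15, the sensors -0.19 to 4.06, interferon signalling -0.41 to 3.14, and the 3 genes of 2-5A turnover -0.40 to -0.20.

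For each member the gene outside the family nearest to it in both log2(FPKM + 1) values was looked up, a likeness over only 2 libraries. Oasl1 was nearest to Zbp1, at a distance of 0.20 on the log2 scale, Oasl2 to the chemokine gene Cxcl10 (0.16) and Oas1a to Ifit1 (0.37). Oas1g was nearest to Trim30a (0.26), Oas3 to Mnda (0.56) and Oas1b to Slfn9 (0.08). Oas1c paired with Pnp2, a purine nucleoside phosphorylase (0.04), and Oas2 with Npy, which encodes neuropeptide Y (0.34).

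Macrophages and other immune cells of the liver also express OAS genes, and their markers were measured alongside. Of 13 macrophage markers 11 had a row, and their summed level was 41.1 FPKM in the control and 233 after ClpP siRNA. Cd68, a lysosomal protein, made up most of both sums, with 24.9 and 226 FPKM. Leaving out Cd68, the marker that was higher with ClpP siRNA, the other 10 summed to 16.2 and 6.57 FPKM. Of the 11 markers, 5 had a mean FPKM below 1. Adgre1 and Timd4 had no row. The 7 endothelial markers summed to 19.6 and 10.9 FPKM, but they did not all go 1 way. Oit3 (3.32 and 4.43 FPKM) and Clec4g (0.190 and 0.794 FPKM) were higher with ClpP siRNA, and the others lower. Of 7 markers of plasmacytoid dendritic cells and lymphocytes, Bst2 alone had a row (499.9 and 1936 FPKM), and it is itself interferon-inducible. The 7 hepatocyte markers summed to 3308 and 7133 FPKM, most of it Alb. Of these 7 markers, 5 were at least 2-fold higher with ClpP siRNA, beside 5.19% of all genes. Alb, Ttr and Tat lay near the limit, with log2 ratios of 1.08, 1.08 and 1.01. Apob and Asgr1 had log2 ratios of -0.32 and -0.61. The part of these cell types in the OAS values was not tested.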

How the data were processed

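Poly-A RNA libraries (Illumina TruSeq kit v2, per the labels' protocols) were sequenced from 1 culture sample per siRNA. FPKM per gene was computed by the authors, per the file headers. The submitters' processing notes name STAR 2.4.0f1, Cufflinks 2.2.1, Bowtie2 2.2.3, TopHat2 2.0.13, Trimmomatic 0.32 and FastQC 0.10.0, without role or order; the sources used here do not give the genome build, read length or strand setting. The log2 columns deposited by the authors equal quantile normalized log2(FPKM + 1) to within 0.001, and their score column is the signed fold change of these. The ClpP siRNA columns were identified from an abbreviated header, and no value was used for that.

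Of 14346 rows, 7 named no gene (0.0475% and 0.0335% of FPKM) and were left out. Log2 ratios used a pseudocount of 1, and counts the 11087 genes with a mean FPKM of at least 1. Levels and ratios have no error estimate, since each group held 1 library and FPKM gives no depth. Alternatives were other pseudocounts (0.1, 5 and none), scalings and filters. The code for ratios and counts was checked on simulated data with known fold changes; the difference between the libraries itself was not tested. Promoters came from RefSeq and transcripts, matched by RefSeq accession, from GENCODE M21; identity is the number of identical bases in a global alignment over the longer sequence (Biopython 1.88). Values were computed with Python 3.11.15, numpy 2.4.6 and pandas 2.3.3, and plotted with matplotlib 3.10.9. Some pathway and flanking genes are not reported here. The genes named were all members, listed pathway and marker genes, flanking genes and the nearest gene to each member. Members and lists were chosen with earlier results of these data known.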

Additional observations from a re-analysis of the deposited data

How the results depend on the processing

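All 8 members stayed at least 2-fold higher under each of the 7 alternatives set at the start. These alternatives were pseudocounts of 0.1 and 5, equal FPKM totals and the authors' log2 columns. The others were centring on the median of all genes, no filter and a mean FPKM of at least 5. The same held without a pseudocount, an alternative chosen after seeing the data. Most of these settings could hardly fail. The filters left every member's ratio unchanged, and only the pseudocount of 5 and the authors' columns gave lower ratios. The family's median log2 ratio ranged from 3.16 (pseudocount 5) to 3.85 (none), and that of the summed Oas1 genes from 3.36 to 3.58; the authors' columns give no sum. The count of all genes at least 2-fold higher was 327 with a pseudocount of 5, against 575. Of 64 recomputed member values 10 moved by more than 1.5-fold, among them Oas2 at 4.87 with equal FPKM totals. The totals of the libraries were close (532302 and 535135), and that setting scaled both up to a larger common total, so that it also made the added 1 smaller against every FPKM. Counts of pathway genes at least 2-fold higher were 8 to 10, and 0 were lower. No paired analysis was possible because each group held 1 library. Depth is unknown, which limits the low GFP siRNA values of Oas2 and Oas3 most.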
